A study of Mus musculus with 2 samples.

Results

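Sonic hedgehog pathway genes are described here in open chromatin of the newborn mouse hindbrain. The 9 genes, taken by name from a mouse annotation with 21938 protein-coding genes, are the ligand Shh, the receptor Ptch1, the co-receptors Boc and Gas1, the membrane protein Smo, the inhibitor Sufu and the transcription factors Gli1, Gli2 and Gli3. Their chromatin was measured by DNase-seq, in which DNase I cuts DNA that is not wrapped in nucleosomes and the ends it releases are sequenced. The tissue was healthy hindbrain (cerebellum, pons and medulla) of B6NCrl mice at postnatal day 0, from pools of male and female animals, with no treatment named in the labels. The 2 biological replicates form 1 group and are separate tissue samples under the same donor entry. The labels used here do not say how many animals were pooled. With 1 group and no second condition there is no test over samples, and all values below are descriptions of these 2 libraries.

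Sonic hedgehog is a secreted, lipid-modified protein. When it binds Patched 1, helped by co-receptors such as BOC and GAS1, Patched 1 stops holding back Smoothened, and Smoothened signalling frees the GLI factors from SUFU so that they act as activators rather than repressors. In the cerebellum around birth, Purkinje cells release the ligand and granule cell precursors divide in response, and Ptch1 and Gli1 are known direct targets of the pathway in many tissues.

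The authors' deposited files list peaks, mostly 150 bp wide, each with a score whose scaling is not stated. A percentile below is a peak's rank by that score within its own replicate's list. Replicate 1 had 270757 peaks on the assembled chromosomes with a median score of 45, and replicate 2 had 171790 with a median of 38. Read depth is unknown, and a site without a peak is only below the authors' calling threshold. Shared regions are the merged span of peaks, joined at an overlap of at least 1 bp, in which both replicates have a peak, so a base in one can lie in a peak of only 1 replicate. By this rule 187 of the 136714 shared regions belonged to the 9 genes. Of these, 23 lay at a promoter (within 500 bp of an annotated start site), 80 lay elsewhere in the body of the gene, and 156 were distal, that is, over 500 bp from every start site and nearest to the start of that gene among protein-coding genes. A region can be both in the gene body and distal, as 72 were.

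The letters GACCACCCA, the sequence GLI proteins bind, stood in 4 of the 187 regions on either strand (2.14%), against 0.168% of all shared regions. The 4 regions belonged to Ptch1, which had 2, Gas1 and Boc. They are shown because they are the members' regions with this motif, which the capitals mark, in mm10 coordinates and on the strand that reads GACCACCCA.
Ptch1 intron, chr13:63566375-63566445, plus strand: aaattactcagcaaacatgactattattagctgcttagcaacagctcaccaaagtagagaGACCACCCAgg
Ptch1 5′ end, chr13:63573455-63573483, minus strand: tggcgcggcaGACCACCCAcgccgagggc
Gas1 downstream, chr13:60085102-60085225, minus strand: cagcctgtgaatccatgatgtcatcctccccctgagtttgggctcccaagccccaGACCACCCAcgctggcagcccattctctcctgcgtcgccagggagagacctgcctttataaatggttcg
Boc intron, chr16:44552096-44552224, plus strand: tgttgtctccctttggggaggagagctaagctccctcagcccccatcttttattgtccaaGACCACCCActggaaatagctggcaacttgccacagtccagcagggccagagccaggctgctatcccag
The Ptch1 intron site lay 704 bp from the nearest Ptch1 start site, and the site at the 5′ end lay 9 bp from one. The Gas1 site lay 92.2 kb downstream of the Gas1 5′ end, in an intron of the lincRNA A530065N20Rik, and the Boc site lay in an intron 6.7 kb from the Boc 5′ end. The regions that hold them had scores of 132 in replicate 1 and 124 in replicate 2 (Ptch1 intron), 100 and 69 (Ptch1 5′ end), 71 and 61 (Gas1), and 80 and 49 (Boc). The Ptch1 intron region thus scored higher in both replicates than any promoter peak of Ptch1. All 4 sites lay in a peak of replicate 1, and those of Gas1 and Boc also lay in a peak of replicate 2. Both Ptch1 sites lay in the shared region but outside the peak of replicate 2. The count is small and moved with the input: peaks of replicate 2 alone gave 2 regions and those of replicate 1 alone gave 5. The shorter core ACCACCC stood in 3.74% of the members' regions, against 2.18% of all shared regions. A match is a run of letters and not evidence of binding.

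Each of the 9 genes had at least 1 peak at a promoter in each replicate, as did 66.3% of all protein-coding genes. The members' median of the best promoter score was 122 in replicate 1 and 87 in replicate 2, against 129 and 109 for the 14541 genes with a promoter peak in both. In bulk tissue, open chromatin in fewer cells and less open chromatin per cell cannot be told apart. The 3 highest genes were Sufu, Gas1 and Gli2, in that order, in both replicates, and Shh was the lowest in both. Of neighbours in the order of mean percentile, only Sufu and Gas1 had percentiles that did not overlap over the replicates (98.8 to 99.2 for Sufu and 96.0 to 98.4 for Gas1). The order between the other neighbours is within the spread of the 2 replicates.

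**Figure D1:**
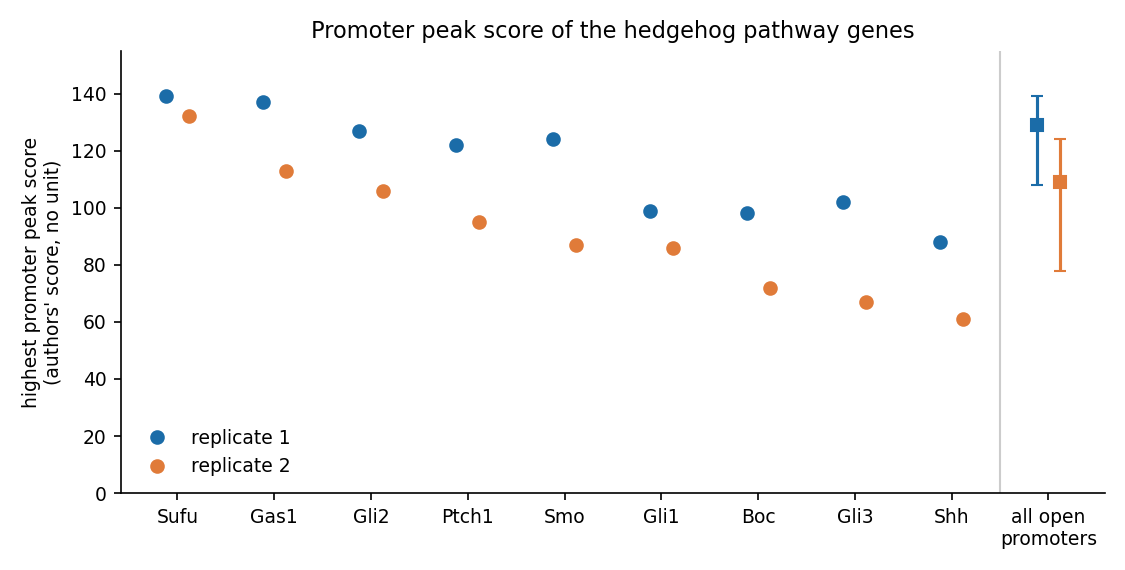
Highest promoter peak score (vertical axis, authors' score, no unit) of each of the 9 genes, with blue points for replicate 1 and orange points for replicate 2; at the right, squares and bars give the median and quartiles of the 14541 protein-coding genes with promoter peaks in both. Sufu is highest with 139 and 132 and Shh is lowest with 88 and 61, in each replicate among the 9 genes.

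Shh, the ligand, had 2 promoter peaks in each replicate. Their scores were 88 and 86 in replicate 1 and 61 and 55 in replicate 2. Shh was the lowest member in both replicates, with a mean percentile of 81.4, and 15.6% of the genes with a promoter peak in both replicates were lower. Its promoter windows also touch those of the antisense RNA 9530036O11Rik and the lincRNA Gm26894, so a peak there cannot be given to Shh alone. The promoter of Shh was also the only one of the 9 whose hotspot, a wider enriched stretch in the deposited files, missed the cap of 100 on the −log10 q scale in a replicate: it reached 100 in replicate 1 and 3.74 in replicate 2. Each of the 9 had a promoter hotspot in both replicates, against 66.7% of all genes.

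The distal side of Shh was long. It had 16 distal regions, of which 12 lay upstream and 12 lay in introns of 9530036O11Rik, which runs through the stretch upstream of Shh. The farthest was 317.3 kb upstream and 10 lay beyond 50 kb. By mean percentile the highest was chr5:28451336-28451485, 15.8 kb from the 5′ end on the downstream side, with 94 in replicate 1 and 83 in replicate 2. An intron region at chr5:28465076-28465245 had 102 and 76, and a region 212.7 kb upstream, chr5:28679896-28680045, had 96 and 71.

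Ptch1, the receptor that inhibits Smo, had 10 annotated start sites, the most of the members. Its best promoter peak scored 122 in replicate 1 and 95 in replicate 2. That peak lay near an internal noncoding start site 9783 bp from the 5′ end, not at the 5′ end itself, where the best scores were 100 and 69. The coding start 8324 bp in, at chr13:63565274, had 100 and 73. The coding start at chr13:63565735 had a peak in replicate 2 only, with a score of 42. No peak of either replicate lay at the 3 start sites farthest into the gene.

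**Figure D2:**
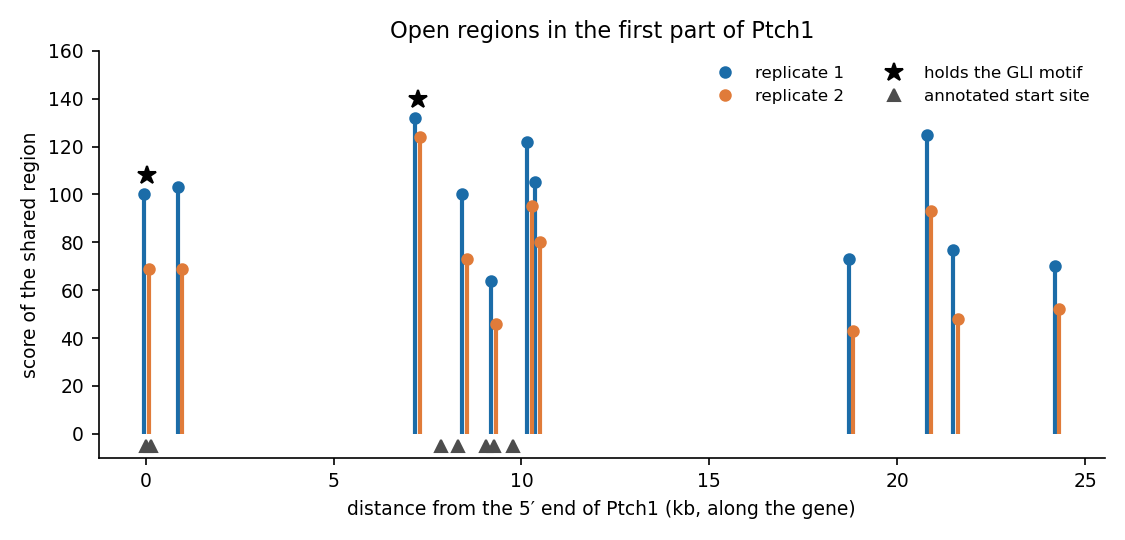
Scores of the shared regions (vertical axis, authors' score, no unit) by distance from the 5′ end of Ptch1 (horizontal axis, kb), as blue lines for replicate 1 and orange lines for replicate 2, with triangles at annotated start sites and stars over regions that hold GACCACCCA. The starred intron region is the highest with 132 and 124, and it stands just before the group of internal start sites that begins 7863 bp in.

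Outside its promoters, Ptch1 had 10 gene body regions, 2 in exons, and 5 upstream regions that reached 118.6 kb. The intron region with the GLI letters, chr13:63566276-63566445, had the highest mean percentile of any member region outside a promoter, 97.7. Within Ptch1, the next were chr13:63552676-63552825, with 125 in replicate 1 and 93 in replicate 2, and chr13:63563096-63563245, with 105 and 80.

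Boc, a co-receptor of the immunoglobulin family, had a single start site with scores of 98 in replicate 1 and 72 in replicate 2. Mir3081 shares its promoter window. All 10 body regions were intronic, but 6 of them are nearest the start of the neighbouring gene Cfap44 and so are not counted as distal to Boc. The other 4 and a group of 6 upstream regions, 54.0 to 74.1 kb away, make its 10 distal regions. The highest was the intron region chr16:44530996-44531145, with 129 and 86, and the highest upstream one was chr16:44632876-44633045, with 104 and 86.

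Gas1, a GPI-anchored co-receptor, is 3.0 kb long, the shortest member, and had the second highest promoter score, 137 in replicate 1 and 113 in replicate 2. Its promoter window touches that of the lincRNA Gm48488. A peak of score 126 at −366 bp from the 5′ end, chr13:60177656-60177805, was called in replicate 1 and not in replicate 2, where the stretch lay in a hotspot. Gas1 had 30 distal regions, 29 of them outside the gene, 15 upstream and 14 downstream, and 97.4% of protein-coding genes had fewer. The highest, chr13:60110556-60110745, lay 66.7 kb downstream in an exon of A530065N20Rik, with 99 and 87. The distal scores of Gas1 were low: the median was 52 in replicate 1 and 37 in replicate 2, against 60 and 40 over all distal regions.

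Smo, the membrane protein that passes the signal on, had promoter scores of 124 in replicate 1 and 87 in replicate 2, with a second peak of 86 and 55, whose centre lay 688 bp from the 5′ end in replicate 1 and 608 bp from it in replicate 2. It had 4 intron regions. Only 2 counted as distal, since the other 2 lie nearer the start of Ahcyl2. Few regions fell to Smo, and 47.0% of protein-coding genes had fewer distal regions; its territory, the stretch of genome nearer its start than any other, was 30.1 kb.

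Sufu, which binds GLI proteins and keeps them from acting, had the highest promoter scores, 139 in replicate 1 and 132 in replicate 2. Its mean percentile was 99.0, above 85.2% of the genes with a promoter peak in both. A noncoding start site 86201 bp in had 62 and 37, and those 4228 and 61010 bp in had none. Its 14 body regions were all intronic, and the highest, chr19:46422576-46422785, had 112 and 95. With 15 distal regions over a territory of 96.1 kb, Sufu had 15.61 distal regions per 100 kb, more than 94.4% of genes.

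The RefSeq promoters (GRCm38.p6, 250 bases before to 50 after the start) of Sufu and Gli2 are printed, since Sufu had the highest promoter scores and Gli2 was the only one of the 6 members in that table with the core ACCACCC of the GLI sequence. Capitals mark CCGCCC (the GC box) or ACCACCC, or the reverse complement of either. The core stood in 4.61% of all RefSeq promoters, and that of Gli2 lay outside its shared regions.
Sufu, chr19:46396646-46396945, plus strand: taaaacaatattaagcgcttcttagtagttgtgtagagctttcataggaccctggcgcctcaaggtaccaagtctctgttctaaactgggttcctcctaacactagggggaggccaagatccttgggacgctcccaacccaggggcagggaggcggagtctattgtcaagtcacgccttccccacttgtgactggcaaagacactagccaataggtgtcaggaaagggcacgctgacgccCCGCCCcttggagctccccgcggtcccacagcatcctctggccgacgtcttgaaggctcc
Gli2, chr1:119053570-119053869, minus strand: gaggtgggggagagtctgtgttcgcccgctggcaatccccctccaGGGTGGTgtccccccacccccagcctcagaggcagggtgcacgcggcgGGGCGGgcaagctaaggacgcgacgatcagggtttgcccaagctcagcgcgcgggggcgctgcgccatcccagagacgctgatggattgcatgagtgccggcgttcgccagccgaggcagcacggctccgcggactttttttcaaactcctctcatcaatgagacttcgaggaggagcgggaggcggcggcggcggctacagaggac
None of the 6 promoters held GACCACCCA, against 0.253% of the 32851 RefSeq promoters, while 5 of 6 held a GC box, against 35.7%. The shared regions at promoters differed less: 43.5% of the members' 23 held a GC box, against 41.5% of all promoter regions. No match says only that these letters are not in that window. At a share of 0.253%, 6 promoters are too few to expect a match. The window of Ptch1 covers the coding start 7863 bp in. It does not reach the 5′ end of Ptch1, where GACCACCCA lay 9 bp from a start site.

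The GLI factors differed in where their open chromatin lay. Gli1, an activator and a target of the pathway, had 5 promoter peaks in replicate 1 and 2 in replicate 2. The peak on its 5′ start, chr10:127341956-127342105, had a score of 76 in replicate 1 and was not called in replicate 2, where it lay in a hotspot. Both replicates had a peak further upstream, near the edge of the promoter window, with scores of 92 in replicate 1 and 86 in replicate 2. An internal coding start 2015 bp in had 99 and 51, and an intron region 2.9 kb from the 5′ end, chr10:127338956-127339125, had 110 and 99, which was above every Gli1 promoter peak in both replicates. Gli1 had only 2 distal regions, both in introns, in a territory of 17.5 kb.

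Gli2, the main activator in many tissues, had 27 intronic regions and 40 distal ones, more than 98.8% of genes for each count. Its 5′ promoter had scores of 127 in replicate 1 and 106 in replicate 2, and a noncoding start 71031 bp in was nearly as high, with 126 and 99. Of the 13 distal regions outside the gene, 12 lay upstream, from 29.2 to 156.1 kb. Of these, 5 lay 29.2 to 44.6 kb upstream, among them chr1:119083736-119083905 and chr1:119087676-119087825, each with 95 and 84.

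Gli3, which acts chiefly as a repressor, had 102 in replicate 1 and 67 in replicate 2 at its promoter. Its promoter windows touch those of Gm6556, a processed transcript. All 26 of its distal regions lay beyond 50 kb, 17 of them upstream and out to 410.4 kb, the farthest of any member. Their median scores, 51 in replicate 1 and 31.5 in replicate 2, were the lowest of the members. The highest were an intron region, chr13:15715236-15715385, with 85 and 64, and a region 349.7 kb upstream, chr13:15113456-15113625, with 84 and 63.

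**Figure D3:**
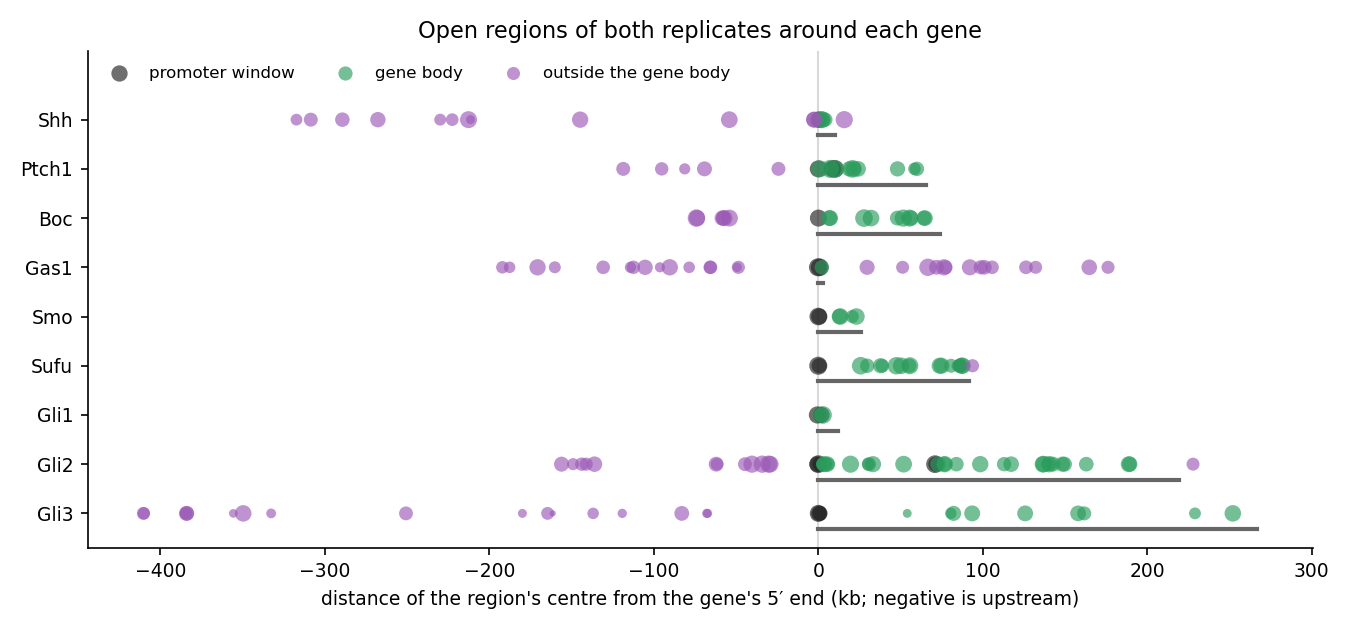
Shared regions of each gene by distance of their centre from its 5′ end (horizontal axis, kb, upstream negative), 1 row a gene, coloured as promoter, gene body or outside the gene; larger points have a higher mean percentile, and the grey bar is the gene's span. Regions of Gli3 reach 410.4 kb and those of Shh 317.3 kb upstream, while those of Gli1 and Smo lie at the promoter or in the gene.

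All 9 members had at least 1 distal region, as did 68.7% of protein-coding genes, and all 9 had at least 1 gene body region, against 50.9%. The median member had 15 distal regions against 2 for all protein-coding genes, and 9 gene body regions against 1. Members also have longer territories, with a median of 189.77 kb against 45.03 kb, and longer genes, with 65.27 kb against 17.42 kb. Per 100 kb of territory the median was 7.88 distal regions against 3.5. Of the 156 distal regions, 110 lay beyond 50 kb and the median distance was 79.6 kb. The count moved with the rules: it was 66 with the nearest start within 50000 bp, 53 when genes of any type could claim a region, and 95 with scores at or above the median of each list. Peaks of replicate 1 alone gave 329 distal and 173 gene body regions. The members' distal regions had median scores of 68.5 in replicate 1 and 42 in replicate 2, against 60 and 40 over all distal regions; gene body regions had 75.5 and 48, against 61 and 40. At promoters the members' regions had 98 and 67, against 98 and 70 over all promoter regions.

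**Figure D4:**
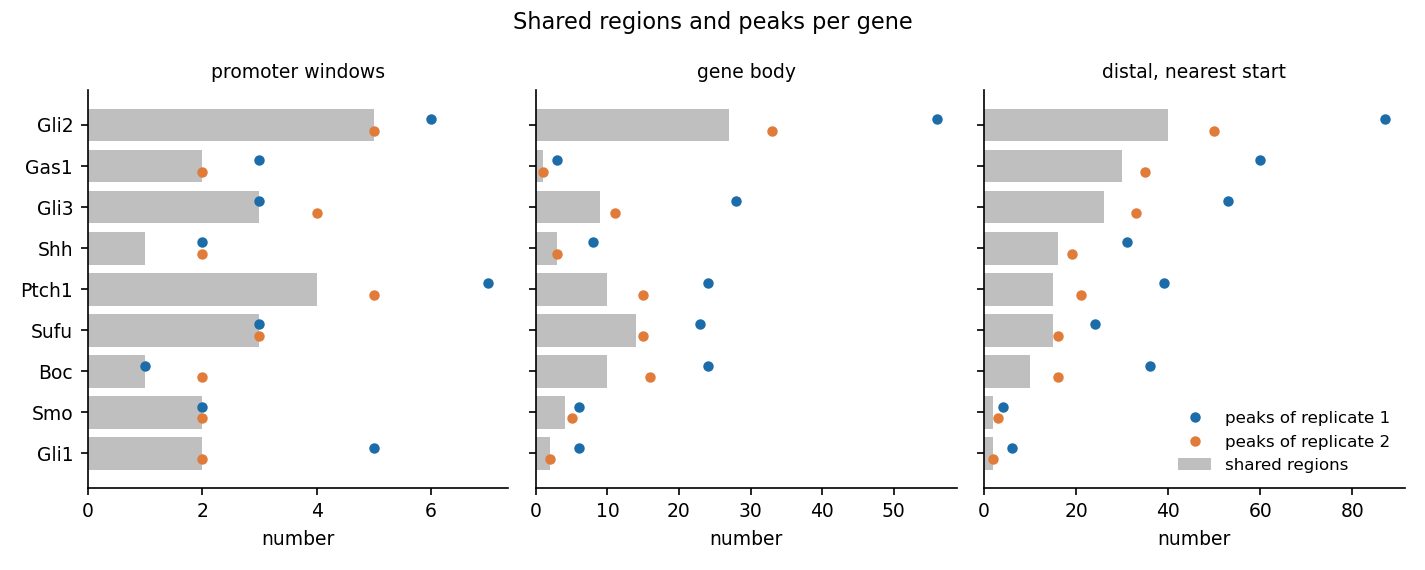
Number (horizontal axis) of shared regions, as grey bars, and of peaks in replicate 1 (blue) and replicate 2 (orange) at promoters, in gene bodies and distal to each of the 9 genes. Gli2 has the most distal regions with 40, Gas1 has 30 and Gli3 26, and Smo and Gli1 have 2 each.

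Density and sequence also varied among the members. Sufu had the most distal regions per 100 kb, 15.61, followed by Gli1 with 11.43 and Gli2 with 9.24. Gli3 had the fewest, 3.76, and Shh had 4.07, over territories of 691.2 kb for Gli3 and 392.7 kb for Shh. Both densities were near the median of all protein-coding genes, 3.5. Within 500 bp of the 5′ end, Gli3 also had the highest observed over expected CpG ratio, 0.94, and Gas1 had 0.88. Start sites further into the genes are not covered by this ratio. Gli1 had the lowest ratio, 0.54, and the median of the members was 0.65, against 0.55 over all protein-coding genes. The regions of Gli3 had the lowest median GC content, 47.1%, and those of Gli1 the highest, 59.7%.

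The hotspots of the members numbered 328 in replicate 1 and 208 in replicate 2. Of these, 37.2% and 27.9% stood at the cap, against 34.8% and 34.0% of all hotspots in replicates 1 and 2. The widest promoter hotspot of replicate 1 was at Ptch1, 4453 bp, where the widest of replicate 2 was 1705 bp. At Gas1 the promoter hotspots were 2800 bp in replicate 1 and 2301 bp in replicate 2, the widest of replicate 2. At Shh they were 784 and 455 bp, the narrowest of the members in both replicates. Of the hotspots of Gli3, 34.7% were at the cap in replicate 1 and 12.1% in replicate 2.

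The members had 383 peaks in replicate 1 and 231 in replicate 2. Of those of replicate 1, 192 (50.1%, exact 95% interval 45.0 to 55.3) overlapped a peak of replicate 2, against 51.6% of all peaks. Of those of replicate 2, 196 (84.8%, 79.6 to 89.2) overlapped a peak of replicate 1, against 82.5% of all. The intervals cover counting error only. Sufu had the highest share in replicate 1, 70.4%, and Gli1 the lowest, 36.4% of 11 peaks; their intervals, 49.8 to 86.2 for Sufu and 10.9 to 69.2 for Gli1, overlap. All 19 Sufu peaks and all 4 Gli1 peaks of replicate 2 had a partner in replicate 1, and Boc had the lowest share there, 68.0%. Peaks without a partner scored lower: the median was 39 against 70.5 in replicate 1 and 25 against 44 in replicate 2. Of the 191 peaks of replicate 1 without a partner, 7 lay at a promoter and 19 lay in a hotspot of replicate 2. Of the 35 of replicate 2, 2 lay at a promoter and 15 lay in a hotspot of replicate 1. These medians and places were not counted over all peaks, so they cannot be read as particular to the members.

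**Figure D5:**
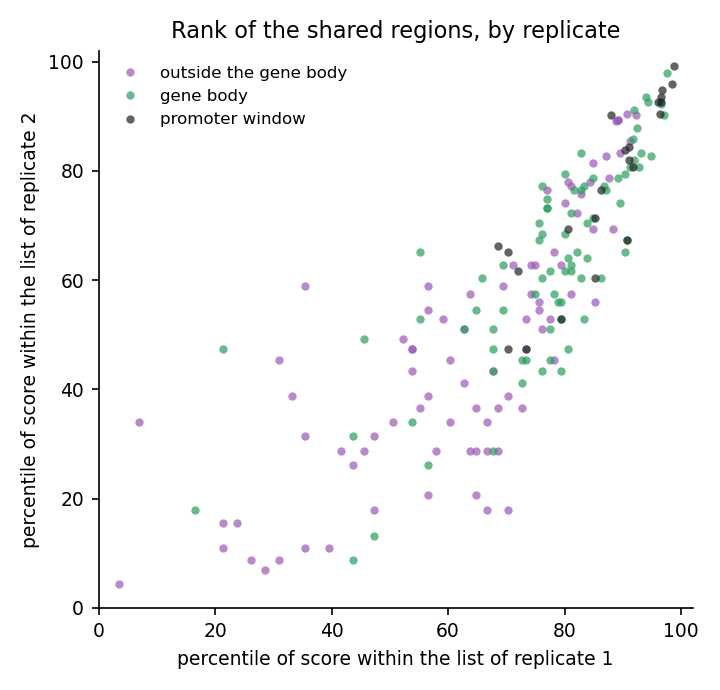
Percentile of the score within the list of replicate 1 (horizontal axis) and within the list of replicate 2 (vertical axis) for the 187 shared regions, coloured as promoter, gene body or outside the gene. The Sufu promoter region stands at the upper right, with 98.8 in replicate 1 and 99.2 in replicate 2, and the points spread more widely at lower percentiles.

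Of 37 other pathway genes, 36 had a peak at a promoter in replicate 1 and 32 in replicate 2, and 32 had one in both, against 66.3% of all protein-coding genes with one in both. All 6 genes of ligand lipidation and release, all 4 other receptors, co-receptors and decoys, all 12 of signal transduction and all 4 of degradation did. The highest were the ubiquitin ligase subunit Btrc, with 147 in replicate 1 and 137 in replicate 2, the kinases Gsk3b (146 and 137), Csnk1a1 (144 and 139) and Prkaca (143 and 139), and Cul3 (140 and 128). The co-receptor Cdon had 123 in replicate 1 and 102 in replicate 2, and the decoy Hhip had 96 and 65. The other hedgehog ligands, Ihh and Dhh, had a promoter peak in replicate 1 only, with scores of 51 for Ihh and 45 for Dhh. Of 9 known targets, 6 had a peak in both. Foxa2 had none in either replicate and 22 distal regions, over a territory of 514.3 kb. The median territory of all protein-coding genes was 45.03 kb. Nkx2-2 and Foxf1, named after their values were seen, had a promoter peak in replicate 1 only, with 73 and 44.

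As a check of the tissue, all 12 hindbrain and cerebellum markers and all 6 granule cell precursor markers had a promoter peak in each replicate, set beside 66.3% of all protein-coding genes with one in both. Purkinje cell markers did in 8 of 8 in replicate 1 and 7 of 8 in replicate 2. Forebrain markers had one in 7 of 8 in replicate 1 and 5 of 8 in replicate 2, with 4 in both, so in replicate 1 they stood close to the hindbrain markers. Floor plate markers had one in 3 of 5 in each replicate. Endothelium markers had one in 3 of 4 in replicate 1 and 2 of 4 in replicate 2, and microglia markers in 2 of 4 and 1 of 4. Liver markers had none in either replicate (0 of 4). Whether cells of these other types add to the members' peaks was not tested. Atoh1, Barhl1 and Zic1 are in both the hindbrain and the granule cell precursor list, so those lists are not separate checks.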

How the data were processed

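DNase-seq peaks and hotspots were deposited as 1 list of each per replicate. Both were called on mm10 from each replicate's own filtered alignments, without pooling, as the labels and file lists of the authors state. For the aligner, the caller and its threshold, no name or version is stated in the labels or headers. The deposited peak lists hold whole-number scores between 1 and 150, and the p and q fields are empty. In the deposited hotspot lists the value is a −log10 q that stops at 100. Peaks on the mitochondrial chromosome and scaffolds, 393 and 212, were left out, and 31 and 39 exact duplicates were kept. Read depth is unknown.

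Start sites came from GENCODE release M21 and sequence from the GRCm38.p6 genome, of the same build. Promoter windows reach 500 bp on each side. Merging, assignment to the nearest protein-coding start and motif search on both strands were written in Python 3.11.15 with numpy 2.4.6, pandas 2.3.3, scipy 1.17.1 and matplotlib 3.10.9 and tested on simulated data. Scores were ranked only within a list, and scores of the 2 replicates are printed side by side without reading a difference between them, since their scaling is not stated. All 9 genes are named, with up to 3 regions each of highest mean percentile; of the other pathway genes, the 5 with the highest mean percentile, those with no peak in either replicate and the related genes Ihh, Dhh, Cdon and Hhip are named. The rule also names 1 further related gene, which is not reported here. Members and lists were chosen with earlier results of these data known. Alternatives were stronger peaks, hotspots, reciprocal overlap, wider or fewer start sites, other assignment rules, other motif settings, lists of equal length and each replicate alone.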

Additional observations from a re-analysis of the deposited data

How the results depend on the processing

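The number of members with a promoter peak in both replicates was 9 under all 7 alternatives. That of other pathway genes was 31 to 36 (main value 32). The wider window and each replicate alone cannot lower these counts by construction, so those settings are no check of them. The 156 distal regions became 95 with scores at or above the median of each list, 66 with the nearest start within 50000 bp and 53 with genes of any type. Each replicate alone gave 187 to 329 distal regions and 97 to 173 gene body regions (main value 80). The share of replicate 1 member peaks overlapped in replicate 2, 50.1%, was 55.6% for stronger scores, 44.6% at 50% reciprocal overlap and 61.6% for lists of equal length. The share of replicate 2 peaks, 84.8%, was 93.3%, 74.9% and 78.4% under the same 3 settings. Regions with the GLI letters, 4, numbered 7 with the core ACCACCC and 2 to 5 with each replicate alone. The 7 are 3.74% of the members' regions, against 2.18% of all shared regions, closer than for the full letters. The stricter rules keep fewer regions by construction, and other causes were not tested. No paired analysis was possible because there is 1 group. Unknown read depth and 2 replicates limit how firmly a missing peak or a difference of scores can be read.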

Other observations

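Other sequence motifs were counted in the members' 187 shared regions as a description, each on both strands. The E-box form CAGATGG, bound by neural bHLH factors, stood in 25 regions (13.4%), against 9.43% of all shared regions, and the form CAGCTG in 20.3% against 18.0%. The NFI letters TTGGC stood in 49.2% against 42.8%. The Sox letters ACAAAG were in 11.8% against 14.9%, and the Zic letters CAGCAGG in 10.7% against 10.6%. The GC box CCGCCC was in 11.8% against 13.8%, and the CRE letters TGACGTCA in 0.535% against 0.69%. The members' regions had a median GC content of 53.5% against 51.3%, and whether base composition accounts for these shares was not tested.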
